A study of Mus musculus with 12 samples.

Results

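Ly6a, Anxa1, Clu, Msln, Il33, Cd44 and Anxa10 are genes that mark the fetal-like or repair state of the mouse intestinal epithelium, and they were measured here in fresh crypts and in crypt-derived monolayers of the small and large intestine. They were taken as the rows of the count tables whose Ensembl gene ID belongs to 1 of these 7 symbols, which found all 7 among 55487 genes, 1 row each. All 7 were among the 19581 genes that passed the filter on low counts. The 7 were chosen by their known role and with their levels and fold changes between these 4 groups already in view, so those values are given as a description, without a p-value.

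The series holds 12 RNA sequencing libraries from C57BL/6 mice in 4 groups of 3. SI tissue and LI tissue are crypts freshly isolated from the small and the large intestine, with 1 mouse per library. The methods take the large intestine from the same mice as the small intestine, so SI and LI libraries may share mice. The labels do not pair them, and the regions were compared as unpaired. SI monolayers and LI monolayers are crypts of the same regions that were plated on Matrigel as a flat epithelium and grown for 24 h in control medium, with pooled wells per library. Per the study's methods and animal statement, the mice were of both sexes and 6 to 10 weeks of age. The monolayers were seeded in medium with CHIR-99021, EGF, LDN-193189, R-spondin-1, Wnt3a and Y-27632, and were then kept in WENR medium (Wnt3a, EGF, Noggin and R-spondin-1), so Wnt agonists and growth factors are shared by both monolayer groups and lacking for fresh crypts. The methods release SI crypts (jejunum) with EDTA alone and LI crypts with collagenase, dispase and DNase in addition, so region and isolation cannot be told apart. The labels do not say whether the pooled wells of the 3 monolayer libraries came from separate mice, so the spread between them may be technical.

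In the adult crypt, stem cells that carry Lgr5 and Olfm4 renew the epithelium under Wnt signals. After injury, and in the fetal gut, epithelial cells instead carry a program with Ly6a (the protein is known as Sca-1), annexins and Clu, and this program is known to depend on YAP and TAZ, the transcriptional coactivators of the Hippo pathway, which bind DNA through TEAD factors. Clu also marks rare revival stem cells, which appear when crypts are damaged.

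The libraries held 59016196 to 76216530 counts, and values are given as normalized counts, the authors' counts divided by 1 size factor per library. The 10 epithelial markers (Epcam, Cdh1, Vil1 and others) all had counts in each group, and their summed level lay between 989130 (SI tissue) and 2511490 (LI monolayers) normalized counts. The 37 mitochondrially encoded genes took 4.56% to 9.16% of the counts in SI tissue and 0.472% to 0.559% in SI monolayers, and 2.25% to 2.59% in fresh LI crypts against 0.704% to 0.750% in the cultured ones. The 12 leukocyte markers summed to 7799 to 11801 normalized counts in fresh SI crypts against 496 to 571 after culture, and to 2067 to 2647 in fresh LI crypts against 196 to 246 after culture, with S100a8 at 0 in both monolayer groups and the other 11 detected. The 10 fibroblast markers summed to 432 to 1558 normalized counts in SI tissue and 566 to 1174 in SI monolayers. In LI their sums were higher, at 2252 to 3327 in tissue and 2043 to 3445 in monolayers. Twist2 was at 0 in all groups but LI monolayers. Replicate 1 of LI tissue stood apart, with a smooth muscle marker sum of 3136 normalized counts, 7 of 8 markers detected and Myocd at 0, against 405 and 321 in the other LI tissue libraries. Their part in the results that follow was not tested, and in bulk RNA fewer cells of a type and less RNA per cell cannot be told apart.

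**Figure D1:**
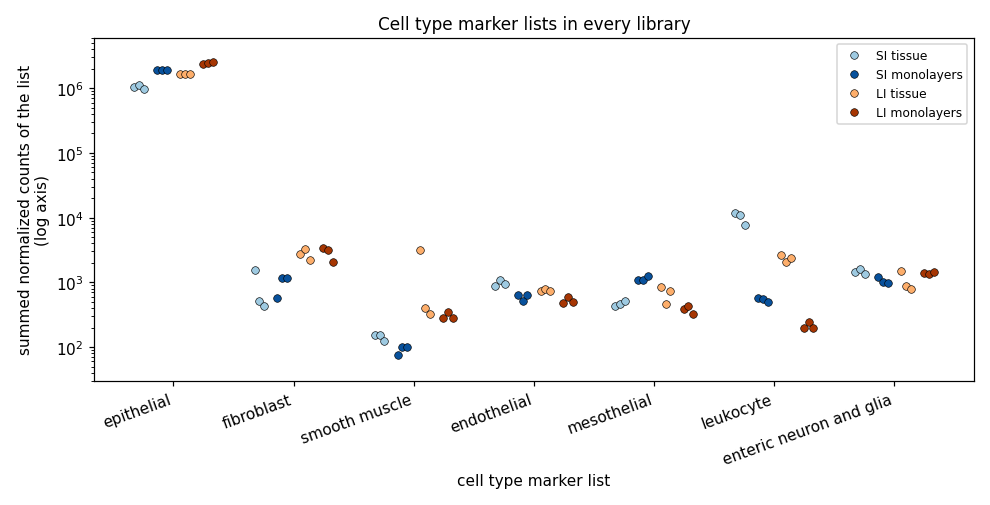
Summed normalized counts of each cell type marker list (log axis) in each of the 12 libraries, with 1 point per library and colours for the 4 groups. Leukocyte sums lie lower in monolayers than in tissue of the same region, and replicate 1 of LI tissue reaches 3136 on the smooth muscle list.

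As a group the genes were more abundant after culture in both regions. Together they took 0.00955% to 0.0126% of all counts in SI tissue against 0.130% to 0.132% in SI monolayers. In LI tissue the share was 0.105% to 0.113%, against 0.517% to 0.524% in the LI monolayers. Most of the share in LI came from Ly6a and Anxa1. Their mean levels were 53313 and 16735 normalized counts in LI tissue and 139749 and 178625 in LI monolayers. Against SI tissue, 6 of the 7 were higher in SI monolayers, past an adjusted p of 0.05 and a log2 fold change of 1, a rule that 26.1% of all tested genes met in either direction and 9.71% with a rise. Against LI tissue, 6 of the 7 were higher in LI monolayers by the same rule, which 38% of all tested genes met, 14.5% with a rise. The gene that did not pass was Il33 in SI and Anxa10 in LI. In SI, 6 of the 7 were higher in every monolayer library than in any tissue library, as were 30.7% of all tested genes, and in LI all 7 were, as were 33.1% of all tested genes. The median log2 fold change of the 7 was 3.98 in SI and 2.49 in LI, where the median over all tested genes was -0.05 in each region. These counts follow from the choice of the genes and carry no test.

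**Figure D2:**
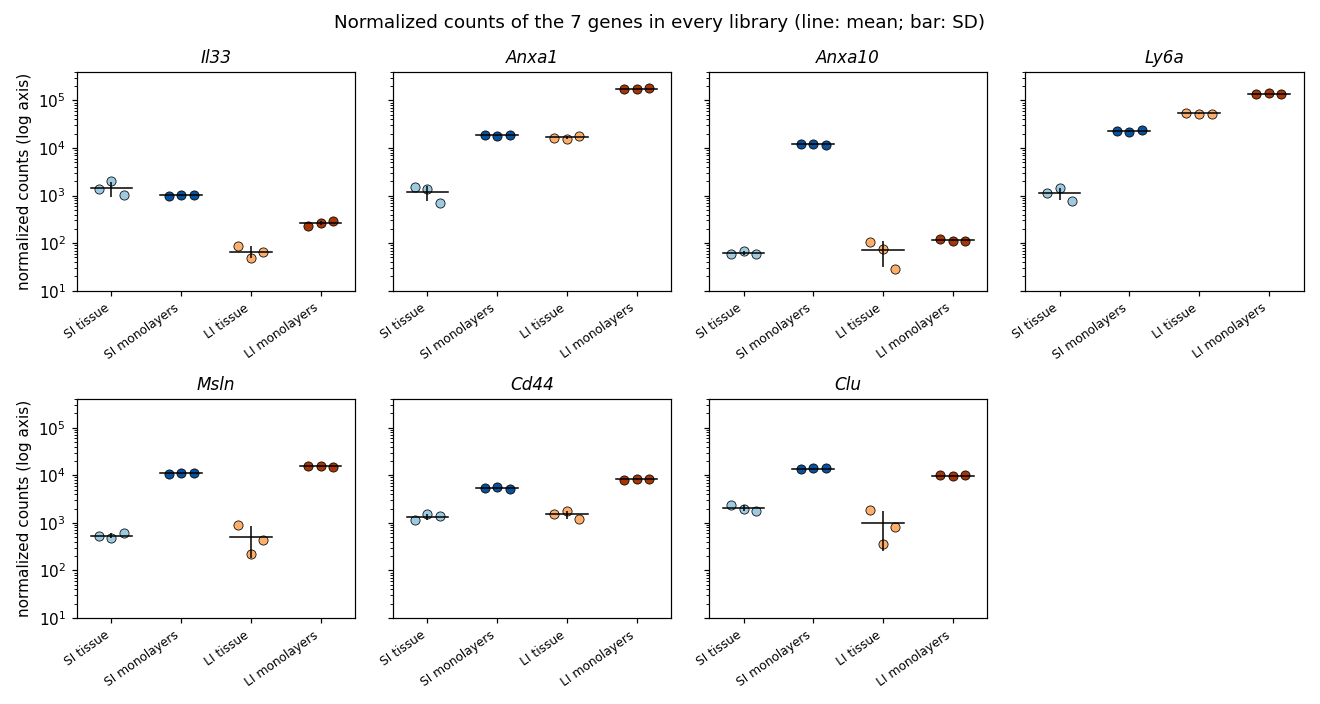
Normalized counts (log axis) of each of the 7 genes in every library of the 4 groups, with 1 point per library, a line at the mean and a bar for the SD (n = 3). Ly6a and Anxa1 reach 138882 to 180503 in LI monolayers, Anxa10 is at 11726 to 12191 in SI monolayers and at 123 or less elsewhere, and Il33 is highest in SI tissue.

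Per kilobase of exon, which allows genes to be compared with each other, Ly6a was the most abundant of the 7 in all 4 groups, with a mean level of 929.5 normalized counts per kb in SI tissue and 18780 after culture, and of 44243 in LI tissue and 115974 after culture. In SI tissue the level per kb of Clu (592 ± 83.3, SD, n = 3) and of Il33 (502 ± 173) came next, and Anxa10 was lowest (27.1 ± 2.54). In SI monolayers the levels per kb of Anxa1 (6339), Anxa10 (5234), Clu (4039) and Msln (3571) followed Ly6a, and Il33 was lowest (349 ± 9.60). In LI monolayers the level per kb of Anxa1 was 61362 ± 645, that of Msln 5016 and that of Clu 2863, and Il33 (91.5) and Anxa10 (50.7) were lowest. Anxa10 thus moved from the lowest place in SI tissue to the third in SI monolayers.

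Il33 (ENSMUSG00000024810, chr19:29925114-29960718, plus strand, GRCm38) encodes interleukin-33, a cytokine kept in the nucleus and released as an alarm signal when cells are damaged. RefSeq lists 2 start sites for it, and the 250 bases before each are shown because each holds 1 match to CATTCC, the core of the site bound by TEAD factors, or its complement GGAATG (capitals). The first lies at chr19:29924863-29925112 and the second at chr19:29945540-29945789, both on the plus strand of GRCm38.p6. Either form was in the 250 bases before 12.6% of 32851 RefSeq promoters.
Il33 start 1: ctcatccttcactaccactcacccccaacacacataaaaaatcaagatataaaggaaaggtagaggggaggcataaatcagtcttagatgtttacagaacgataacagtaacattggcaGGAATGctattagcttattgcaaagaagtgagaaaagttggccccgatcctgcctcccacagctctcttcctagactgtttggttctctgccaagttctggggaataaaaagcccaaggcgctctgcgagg
Il33 start 2: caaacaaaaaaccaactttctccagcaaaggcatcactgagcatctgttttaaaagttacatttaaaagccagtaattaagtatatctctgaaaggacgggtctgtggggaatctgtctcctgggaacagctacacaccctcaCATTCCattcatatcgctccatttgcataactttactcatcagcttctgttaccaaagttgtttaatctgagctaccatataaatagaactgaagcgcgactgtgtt

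Il33 was at 1357, 1988 and 1005 normalized counts in replicates 1, 2 and 3 of SI tissue and at 979, 1034 and 1009 in SI monolayers. In LI tissue it was at 86.5, 49.4 and 64.3, and in LI monolayers at 235, 270 and 288. Both SI groups were above both LI groups, the SI groups overlapped, and LI monolayers were above LI tissue in all libraries. On the log2 scale the change with culture was -0.49 (SE 0.21) in SI and 2.03 (SE 0.26) in LI, which is a ratio of mean levels of 0.695 and 3.96. The mean level in SI tissue was 21.7 times that in LI tissue (log2 4.48), and the log2 difference of the regions was 1.96 in monolayers. SI tissue replicate 3, the lowest in Il33, was also the lowest of its group in Ly6a, Anxa1 and Clu and in the leukocyte sum (7799), and without it the log2 fold change of Il33 in SI was -0.69.

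The receptor of interleukin-33 is formed by Il1rl1 (known as ST2) and the co-receptor Il1rap, and Il1rl1 moved in opposite directions in the 2 regions. Il1rl1 was at 47.0, 140 and 344 normalized counts in SI tissue and at 17.3 to 20.1 in SI monolayers. In LI tissue it was at 7.14 to 23.8 and in LI monolayers at 554 to 636. Il1rl1 fell in SI, with a log2 fold change of -3.24 (SE 0.67, edgeR adjusted p = 0.00206), and rose in LI by 5.43 (SE 0.70, edgeR adjusted p = 5.94e-05), with no overlap between libraries in either region. The 3 SI tissue libraries spanned a wide range. The leukocyte sums fell with culture in SI as well. Among replicates 1, 2 and 3 of SI tissue they were 11801, 11122 and 7799, lowest where Il1rl1 was highest. Their relation to Il1rl1 was not tested. Il1rap rose in LI, with a log2 fold change of 1.10 (SE 0.11, edgeR adjusted p = 1.23e-07), and was at 0.804 times the tissue level in SI, which did not pass the minimum fold change.

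Clu (ENSMUSG00000022037, chr14:65968483-65981547, plus strand) encodes clusterin, a secreted chaperone. It was at 2350, 1966 and 1790 normalized counts in SI tissue and at 13439, 14053 and 14149 in SI monolayers. LI tissue held 1840, 364 and 832 and LI monolayers 10139, 9457 and 9928. The monolayers of each region were above the tissue of both regions, while SI and LI tissue overlapped. The log2 fold change with culture was 2.81 (SE 0.46) in SI and 3.33 (SE 0.48) in LI, or 6.82-fold and 9.72-fold of the mean levels. Clu had the widest relative spread of the 7 in LI tissue, with replicate 1 at 1840, and without that library the log2 fold change in LI was 4.07.

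Clusterin is taken up by Lrp2 and binds the lipoprotein receptors Lrp8 and Vldlr, and these receptors were measured as partners. Lrp8 rose in both regions, with a log2 fold change of 3.12 (SE 0.14, edgeR adjusted p = 2.43e-11) in SI and 1.73 (SE 0.13, edgeR adjusted p = 5.01e-09) in LI. Vldlr rose in SI from 173 to 309 normalized counts in tissue to 1775 to 2112 in monolayers, with a log2 fold change of 2.98 (SE 0.19, edgeR adjusted p = 3.58e-08). In LI the log2 fold change of Vldlr was -0.02 (SE 0.17, edgeR adjusted p = 0.925), and the interaction of region and culture had an edgeR adjusted p of 1.34e-06. Lrp2 rose in SI monolayers too, to 58.4 to 99.8 normalized counts from 4.17 to 12.9.

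Anxa1 (ENSMUSG00000024659, chr19:20373428-20390944, minus strand) encodes annexin A1, a calcium-dependent phospholipid-binding protein that restrains inflammation and promotes the closure of epithelial wounds through formyl peptide receptors. Anxa10 (ENSMUSG00000031635, chr8:62057042-62123150, minus strand) encodes annexin A10, a family member that is common in the gastric epithelium. Their 250 upstream bases are shown because, with Il33, they are the ones among the 4 members matched in RefSeq that hold a searched motif. The capitals mark CATTCC in Anxa1 (chr19:20390672-20390921, minus strand, GRCm38.p6) and TGAGTCA, a form of the AP-1 site TGANTCA, in Anxa10 (chr8:62123194-62123443, minus strand).
Anxa1: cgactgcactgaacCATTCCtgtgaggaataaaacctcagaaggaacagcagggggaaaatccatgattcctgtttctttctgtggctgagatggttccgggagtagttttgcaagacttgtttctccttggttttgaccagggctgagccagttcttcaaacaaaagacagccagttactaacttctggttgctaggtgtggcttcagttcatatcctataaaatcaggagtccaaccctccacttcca
Anxa10: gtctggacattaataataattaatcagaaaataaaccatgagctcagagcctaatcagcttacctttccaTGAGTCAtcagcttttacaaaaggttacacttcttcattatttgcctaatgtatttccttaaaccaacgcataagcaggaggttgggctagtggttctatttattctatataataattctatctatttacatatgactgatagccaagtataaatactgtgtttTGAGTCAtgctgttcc
The match in Anxa1 began 236 bases before the start site, and those in Anxa10 began 180 and 16 bases before it. TGANTCA, which reads the same on both strands, was in 6.75% of the 32851 promoters. The promoter of Cd44 held neither motif, and Ly6a, Clu and Msln were not matched. A match is a description of letters and no evidence of binding.

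Anxa1 was at 1482, 1399 and 716 normalized counts in SI tissue and at 18561, 18359 and 18441 in SI monolayers. In LI tissue it was at 16444, 15713 and 18047, and in LI monolayers at 176747, 178625 and 180503. None of the 4 groups overlapped, and fresh LI crypts lay close under cultured SI crypts. The log2 fold change with culture was 3.98 (SE 0.24) in SI and 3.46 (SE 0.23) in LI, or 15.4-fold and 10.7-fold, and the LI level was 14.0-fold the SI level in tissue. Of its receptors, Fpr1 and Fpr2 had 0 to 4 counts in each library and were not tested. S100a10 and S100a11, small calcium-binding partners of annexins, rose in both regions, S100a11 by a log2 fold change of 3.90 (SE 0.07, edgeR adjusted p = 1.61e-15) in SI and 3.66 (SE 0.07, edgeR adjusted p = 7.73e-16) in LI.

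Anxa10 showed the largest change of the 7, and among the 4 groups SI monolayers alone held it at a high level. It was at 58.8, 68.8 and 58.7 normalized counts in SI tissue and at 12191, 12070 and 11726 in SI monolayers. In LI tissue it was at 107.1, 75.97 and 28.57, and in LI monolayers at 123, 112 and 113. The log2 fold change with culture was 7.62 (SE 0.29) in SI, a ratio of 193.2 between the mean levels, and 0.78 (SE 0.32) in LI, a ratio of 1.65. SI and LI tissue overlapped, and LI monolayers lay just above the highest LI tissue library. The level in SI monolayers was 103.3 times that in LI monolayers. Without LI tissue replicate 1 the log2 fold change in LI was 1.197, and Anxa10 then passed the rule as well, so that all 7 genes did.

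Ly6a (ENSMUSG00000075602, chr15:74994877-74998031, minus strand) encodes Sca-1, a lipid-anchored surface protein of the Ly6 family that is induced in the epithelium during regeneration. It was at 1161, 1411 and 788 normalized counts in SI tissue and at 22447, 21818 and 23626 in SI monolayers. In LI tissue it was at 54121, 53016 and 52800, and in LI monolayers at 138882, 140919 and 139446. The 4 groups did not overlap, and fresh LI crypts stood above cultured SI crypts. The log2 fold change with culture was 4.37 (SE 0.17) in SI and 1.44 (SE 0.15) in LI, a ratio of 20.2 and 2.62 between mean levels. The LI level was 47.6-fold the SI level in tissue, and SI minus LI came to -5.53 on the log2 scale in tissue and to -2.60 in monolayers.

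Msln (ENSMUSG00000063011, chr17:25748613-25754378, minus strand) encodes mesothelin, a lipid-anchored surface protein of mesothelial cells that also appears in fetal-like epithelium. It was at 529, 478 and 602 normalized counts in SI tissue and at 10855, 10911 and 11063 in SI monolayers. LI tissue held 881, 225 and 437 and LI monolayers 16024, 15333 and 14753. Monolayers were above tissue in every library of both regions, and the tissues overlapped. The log2 fold change was 4.38 (SE 0.41) in SI and 4.95 (SE 0.42) in LI, or 20.4-fold and 29.9-fold. The 7 mesothelial markers, Msln not counted, summed to 425 to 509 normalized counts in SI tissue and 1074 to 1265 after culture. In LI they summed to 470 to 862 in tissue and 320 to 433 after culture. The sum thus rose with culture in SI and fell in LI, and its relation to Msln was not tested. Bnc1 and Muc16 were at 0 in SI tissue. Muc16, the binding partner of mesothelin and a mesothelial marker itself, had 0 to 2 counts in the SI libraries, 4 to 10 in LI tissue and 10 to 14 after culture in LI.

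Replicate 1 of LI tissue was the highest of its group in Ly6a, Clu, Msln, Il33 and Anxa10, beside its smooth muscle sum of 3136 normalized counts. Without it the log2 fold change of Msln in LI was 5.57 and that of Il33 2.25.

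Cd44 (ENSMUSG00000005087, chr2:102811141-102901665, minus strand) encodes a receptor for hyaluronan and osteopontin and is a Wnt target gene of crypts. It was at 1124, 1525 and 1366 normalized counts in SI tissue and at 5399, 5687 and 5192 in SI monolayers. In LI tissue it was at 1535, 1800 and 1202, and in LI monolayers at 7812, 8517 and 8409. Both tissues overlapped, and each monolayer group was above both of them. The log2 fold change was 2.05 (SE 0.14) in SI and 2.49 (SE 0.14) in LI, or 4.05-fold and 5.45-fold. Cd44 and Anxa1 each overlap a noncoding gene on the other strand, Gm23731 and 1500015L24Rik, which shares none of their exons.

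Among partners of CD44, the hyaluronan synthases were at low levels. Has1 had no count in the 6 SI libraries, 0, 0 and 2 counts in LI tissue and 48, 48 and 40 in LI monolayers. Has2 rose in LI monolayers to 47.1 to 60.6 normalized counts, with a log2 fold change of 3.21 (SE 0.80, edgeR adjusted p = 0.00216). The transcripts of proteins that tie CD44 to the actin skeleton did not all move alike. Ezr rose in LI by a log2 fold change of 2.08 (SE 0.09, edgeR adjusted p = 2.08e-11). Msn fell by 2.09 in SI (SE 0.27, edgeR adjusted p = 9.50e-05) and rose by 2.93 in LI (SE 0.27, edgeR adjusted p = 4.04e-06). Rdx went from 262 to 499 normalized counts in SI tissue down to 59.5 to 81.2 after culture. In LI it went from 491 to 1085 up to 1490 to 1509. Msn was at 631 to 1135 normalized counts in SI tissue and 154 to 255 in SI monolayers, where the leukocyte sums fell as well. Spp1, which encodes osteopontin, fell in SI by 2.62 on the log2 scale (SE 0.55, edgeR adjusted p = 0.000678) and rose in LI by 1.94 (SE 0.55, edgeR adjusted p = 0.00520).

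**Figure D3:**
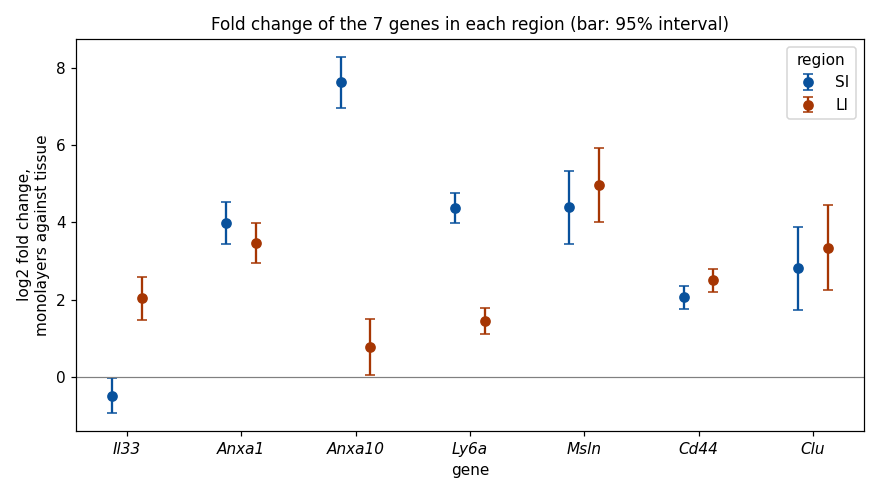
Log2 fold change of monolayers against tissue for each of the 7 genes in SI (blue) and LI (brown), with 95% intervals from the edgeR fit on 12 libraries. The intervals of Anxa10 (7.62 in SI, 0.78 in LI), Ly6a (4.37 and 1.44) and Il33 (-0.49 and 2.03) lie apart between the regions. Those of the other 4 overlap, which does not show that their change is equal.

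The change with culture was unlike between the regions for 3 of the genes, and for Il33 the estimates had opposite signs. The interaction, the log2 fold change in SI minus that in LI, was 6.85 for Anxa10, 2.94 for Ly6a and -2.52 for Il33, and these 3 passed the rule, which 20% of all tested genes met. For Anxa1 it was 0.52, for Cd44 -0.44, for Clu -0.53 and for Msln -0.57. Without LI tissue replicate 1, Clu (-1.27) and Msln (-1.19) passed as well, so that 5 did.

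Between the fresh crypts of the 2 regions, Il33 was higher in SI and Ly6a and Anxa1 were higher in LI, with no overlap between libraries, which held for 58.8% of all tested genes in 1 direction or the other, and the other 4 genes overlapped. Those 3 also passed the rule of fold change and adjusted p, as did 22.7% of all tested genes. The 4 that overlapped had log2 fold changes of 1.05 (Clu), 0.11 (Msln), -0.13 (Cd44) and -0.13 (Anxa10), SI against LI. Between monolayers no gene overlapped, as for 62.3% of all tested genes: Clu, Il33 and Anxa10 were higher in SI and Ly6a, Anxa1, Msln and Cd44 in LI. Of these, Anxa10 and Il33 with a higher level in SI and Ly6a and Anxa1 with a higher level in LI passed the rule, which 21.2% of all tested genes met, and the log2 fold change was 0.52 for Clu, -0.46 for Msln and -0.57 for Cd44. The 4 comparisons share their groups, so their values for a gene are not independent of each other.

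The shape of a gene's levels over the 12 libraries was compared between genes by the root mean square difference of their log2 CPM after each gene was centred, over 9212 genes with enough counts. Among the 7, Ly6a and Anxa1 were nearest to each other (0.79), followed by Clu and Msln (0.94) and Clu and Cd44 (0.97), and Anxa10 stood far from all, at 2.35 or more. The genes most like Cd44 were Krt18 (0.12), Zfand2a (0.16) and Anxa2 (0.17), and those most like Il33 were Pcsk6 (0.20), Ano6 (0.40) and Fam213a (0.43). Nearest to Ly6a were Slc45a3 (0.42), Serpinb5 (0.49) and S100a14 (0.51), and nearest to Anxa1 were Anxa8 (0.37), Sema3c (0.49) and Gprc5a (0.54). Clu was nearest to Tmem237 (0.46), Pgap1 (0.48) and Rin3 (0.52), and Msln to Tnfrsf12a (0.42), Phlda3 (0.42) and Phldb2 (0.46). Even the nearest genes to Anxa10, Cybrd1 (1.02), Gm3776 (1.11) and Gsta1 (1.19), were further from it than that. Gm3776 and Gsta1 are near copies of each other whose reads may be split between them.

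Of all tested genes, 9.71% rose and 16.4% fell in SI monolayers and 14.5% rose and 23.5% fell in LI monolayers, with a median log2 fold change of -0.05 in each region, and the related gene lists are given beside these shares. Most of the 18 other genes listed for the fetal-like and revival state rose. Of these, 15 rose, 2 fell and 1 did not pass in SI monolayers, with a median log2 fold change of 4.30, and 16 rose and 2 did not pass in LI monolayers, with a median of 3.63. Areg, which encodes a ligand of the EGF receptor, was at 360 to 492 normalized counts in SI tissue and 29084 to 30415 in SI monolayers, and in LI it went from 1475 to 1861 up to 17838 to 19430. Its log2 fold was 6.09 (SE 0.13, edgeR adjusted p = 3.82e-13) in SI and 3.59 (SE 0.11, edgeR adjusted p = 4.87e-12) in LI. Ereg, another such ligand, rose by 5.34 and 4.87. Plaur, the urokinase receptor, rose by 5.86 and 5.70, and Sprr1a, a cornified envelope gene, by 6.33 and 5.74. The keratin Krt7 rose by 3.43 in SI and 4.52 in LI, from levels already at 11738 to 15669 normalized counts in tissue.

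**Figure D4:**
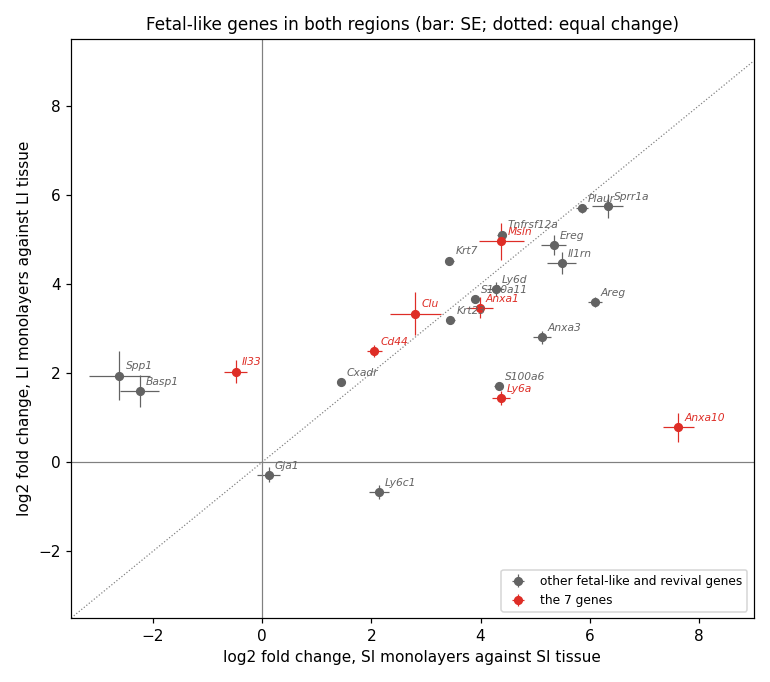
Log2 fold change of monolayers against tissue in SI (x axis) and LI (y axis) for the 7 genes (red) and 17 of the 18 other fetal-like and revival genes (grey), with SE bars and a dotted line of equal change. Most genes lie at the upper right, Anxa10 and Ly6a lie below the line, and Spp1, Basp1 and Il33 lie left of 0 in SI and above 0 in LI.

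Not every gene of that list rose. Basp1 and Spp1 fell in SI and rose in LI. Basp1 changed by -2.25 in SI (SE 0.35, edgeR adjusted p = 0.000262) and by 1.59 in LI (SE 0.36, edgeR adjusted p = 0.00235). The gap junction gene Gja1 passed in neither region, with log2 fold changes of 0.12 (SE 0.21) and -0.28 (SE 0.17). Ly6c1 rose by 2.13 in SI (SE 0.18, edgeR adjusted p = 1.13e-06) and was at 0.607 times the tissue level in LI. It shares sequence with other Ly6 genes, so its counts are uncertain. Whether this also holds for Ly6a, of the same family, was not tested. S100a6 was at 3042 to 3623 normalized counts in fresh SI crypts, 63679 to 66296 in cultured SI crypts, 57489 to 68717 in fresh LI crypts and 194529 to 197756 in cultured LI crypts. Cultured SI and fresh LI crypts overlapped for S100a6, whereas for Ly6a they did not, with 21818 to 23626 and 52800 to 54121 normalized counts.

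Of the 10 other annexins, 8 rose and 1 fell in SI monolayers and 6 rose and 2 fell in LI monolayers, with median log2 fold changes of 1.77 and 1.21. Anxa8 had the profile nearest to Anxa1 and rose by 3.38 in SI (SE 0.26, edgeR adjusted p = 2.65e-06) and by 3.91 in LI (SE 0.24, edgeR adjusted p = 3.50e-07). Anxa3 rose by 5.12 in SI and 2.80 in LI, and Anxa5, which binds phosphatidylserine, by 3.28 and 2.90. Anxa6 fell by 1.19 in SI and by 1.15 in LI. Anxa13, an intestinal annexin, rose by 1.41 in SI (SE 0.11, edgeR adjusted p = 1.28e-07) and changed by -1.19 in LI (SE 0.11, edgeR adjusted p = 6.99e-07). Per kilobase, Anxa2 was the most abundant annexin in SI monolayers (50340 normalized counts per kb) and LI monolayers (70069), followed in LI by Anxa1 (61362).

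**Figure D5:**
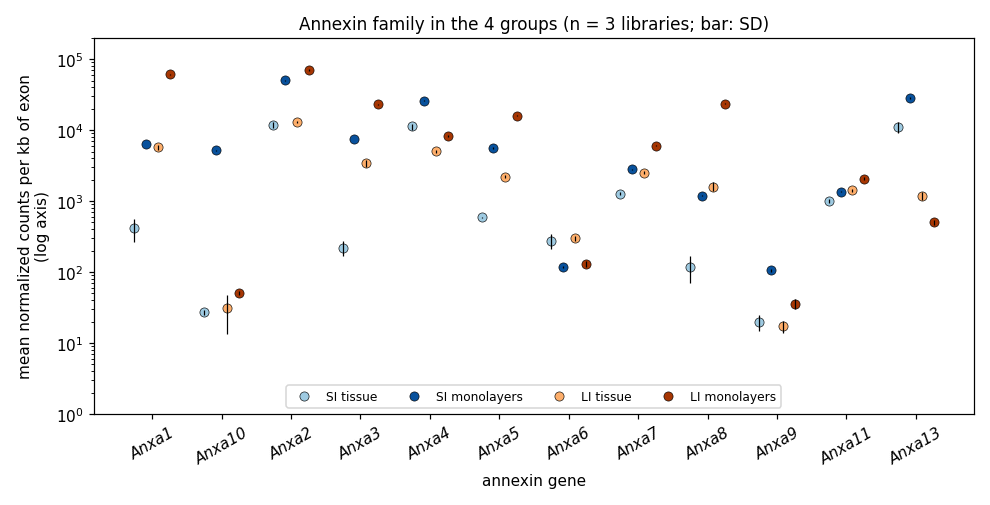
Mean normalized counts per kb of exon (log axis) of the 12 annexin genes in the 4 groups, with SD bars over 3 libraries. Anxa10 is at 5234 in SI monolayers and at 27.1 to 50.7 in the other groups, while Anxa1 climbs from 412 in SI tissue to 61362 in LI monolayers.

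The 12 tested genes of the Ly6 family other than Ly6a were less uniform, with 5 up and 1 down in SI (median log2 fold change 1.27) and 3 up and 1 down in LI (0.66). Psca, the prostate stem cell antigen, rose by 5.52 in SI (SE 0.19, edgeR adjusted p = 9.39e-13) and 7.92 in LI (SE 0.21, edgeR adjusted p = 1.81e-14). Ly6d rose by 4.28 and 3.88. Lypd8, which keeps bacteria away from the colonic epithelium, fell by 1.70 in SI (SE 0.08, edgeR adjusted p = 6.49e-11) and by 2.98 in LI (SE 0.08, edgeR adjusted p = 6.69e-14).

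Of 21 tested YAP target genes, 11 rose and 3 fell in SI monolayers and 15 rose and 2 fell in LI monolayers, with median log2 fold changes of 1.24 and 2.59. F3, the tissue factor gene, was at 598 to 853 normalized counts in SI tissue and 33575 to 33917 in SI monolayers, and it rose by 5.60 in SI (SE 0.13, edgeR adjusted p = 1.27e-12) and 5.49 in LI (SE 0.13, edgeR adjusted p = 4.23e-13). Myof rose by 3.38 in SI and 3.07 in LI, and Amotl2, which restrains YAP, by 2.09 and 4.26. Nt5e fell by 3.24 in SI and Nuak2 by 2.06 in LI. Of the 15 Hippo pathway components, 4 rose and 11 did not pass in SI, and 5 rose and 10 did not pass in LI, with medians of 0.32 and 0.83. The largest rises were in Tead4, by 4.56 (SE 0.14, edgeR adjusted p = 4.37e-13) and 4.82 (SE 0.12, edgeR adjusted p = 2.41e-14), and in Wwtr1, which encodes TAZ, by 2.80 (SE 0.17, edgeR adjusted p = 9.91e-10) and 5.04 (SE 0.19, edgeR adjusted p = 1.90e-12).

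Of 12 genes of the homeostatic crypt stem cell, 2 fell and 10 did not pass in SI, a share near that of all tested genes (16.4% fell). In LI 7 fell and 5 did not pass, where 23.5% of all tested genes fell. Their median log2 fold changes were -0.63 in SI and -1.22 in LI, against -0.05 over all tested genes in both regions. Lgr5, the stem cell receptor for R-spondins, named here after its values were seen, was at a mean of 661 normalized counts in SI tissue and 702 in SI monolayers, with overlapping libraries, and fell by 3.45 in LI (SE 0.24, edgeR adjusted p = 1.53e-09). Olfm4 fell by 6.09 in SI (SE 1.19, edgeR adjusted p = 0.00204), from 71878 to 94859 normalized counts in SI tissue to 1138 to 1325 in SI monolayers, and Ascl2, a Wnt-driven stem cell factor, fell by 6.19 in LI (SE 0.37, edgeR adjusted p = 2.95e-09). Of 12 interferon-induced genes, a group to which Ly6a also responds, 1 rose, 9 fell and 2 did not pass in SI, and 10 fell and 2 did not pass in LI, with medians of -1.59 and -1.38. Usp18 fell by 3.35 in SI (SE 0.43, edgeR adjusted p = 0.000106) and Gbp2 by 4.403 in LI (SE 0.28, edgeR adjusted p = 2.14e-07). The level of Ly6a was higher in monolayers of both regions, and its relation to these genes was not tested.

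Over the 8 lists together, 114 of 121 genes were tested, and 45 rose and 21 fell in SI monolayers while 53 rose and 22 fell in LI monolayers. Of the partners of the 7 genes, 19 of 22 were tested, 5 rose and 4 fell in SI, and 12 rose and 7 did not pass in LI, with medians of 0.36 and 1.14. These counts describe the lists and were not tested against other genes.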

How the data were processed

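RNA from freshly isolated crypts and from monolayers was sequenced as paired ends on an Illumina HiSeq. The authors aligned the reads to GRCm38 with STAR 2.7.9a, counted them on GENCODE genes with featureCounts 2.0.2 and deposited the raw counts of each gene as whole numbers. The authors also deposited a signal table, in which these counts are divided by 1 DESeq2 size factor per library (version 3.13 per the labels; factors of 0.850 to 1.12). Among counts from 1 to 20, 73.4% to 77.4% were even, so both mates of a pair may have been counted; whether counting used strand is not given in the sources used here. Depth was 59016196 to 76216530 counts per library (median 69256790). The upper limit behind a count of 0 (3 counts) thus equals 0.0394 to 0.0508 CPM, for counting error only. That limit takes each count as 1 event and would be higher if both mates were counted.

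The 7 genes, the lists and the rule for naming genes were chosen with earlier results of these data known. Gene names, positions and exon lengths came from GENCODE vM21 (55227 of 55487 genes named; Ly6m of the lists was not found), and promoters from RefSeq (4 of 7 genes matched). Counts were tested with edgeR 4.0.16 in R 4.3.3: filterByExpr, TMM scaling and robust quasi-likelihood fits (glmQLFit) of the 4 group means, with Benjamini-Hochberg adjustment over all 19581 tested genes in each of 5 comparisons. A gene was called, or said to rise, fall or pass, where its adjusted p was under 0.05 and its log2 fold change reached 1 in size. The SE of a fold change is its size divided by the root of the F statistic. Named were the 7 genes, the genes of the fetal-like list (1 of which is not reported here by name) and of the partners and, per other list and region, the 2 largest rises and the largest fall among called genes, and the 3 genes with the profile nearest to each of the 7 among tested genes with a mean of at least 10 CPM. Counts were also simulated for SI monolayers against SI tissue (19056 genes), with changes placed only in genes of higher mean counts. At an adjusted p under 0.05 alone, 91% of genes changed by 1 on the log2 scale were recovered. For those changed by 2 it was 98%, with 4 false calls. The minimum fold change was not applied there, so these shares are not the recovery of the rule used here. With counts divided by 2, in case both mates were counted, the median squared difference between replicates was compared with that of counting noise. It was 1.97 to 2.64 times that of counting noise in monolayers and 3.47 to 4.69 times in tissue. Each library was taken as 1 replicate, though this spread does not show that libraries are independent. Results were recomputed with upper quartile scaling, with DESeq2 1.42.0, with other filters on low counts (none, and at least 10 in all libraries), without the fold change minimum, on 2 groups at a time, with replicate numbers as a block, leaving out single libraries, and for levels with a pseudocount of 10 in place of 1.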

Additional observations from a re-analysis of the deposited data

Results flagged for a closer look

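The criterion here was a call in both regions in opposite directions and also in the interaction. The interaction is the log2 fold change in SI minus that in LI. None of the 7 genes met this criterion, but 6 of the 53 tested genes of the related lists that the text may name did. In all, 29 of the 53 passed the interaction, a rule that 20% of all tested genes met. Part of the 53 were named for a large change in 1 region, so these counts follow in part from that choice. The share of all tested genes called in opposite directions was not computed. Il1rl1, the receptor of interleukin-33, had an interaction of -8.67 (SE 0.97, edgeR adjusted p = 5.21e-05), Msn of -5.02 (SE 0.38, edgeR adjusted p = 3.52e-06), Spp1 of -4.56 (SE 0.78, edgeR adjusted p = 0.000171) and Basp1 of -3.83 (SE 0.50, edgeR adjusted p = 0.000115), each lower in SI monolayers and higher in LI monolayers than in tissue. Anxa13, with an interaction of 2.60 (SE 0.16, edgeR adjusted p = 3.76e-08), and Cxcl10, an interferon-induced chemokine, with 3.07 (SE 0.47, edgeR adjusted p = 5.63e-05), were higher in SI monolayers and lower in LI monolayers. Cxcl10 changed by 1.83 in SI and by -1.23 in LI.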

How the results depend on the processing

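Over all alternatives, no fold change of the 7 genes that passed the rule changed direction; of 623 recomputed fold changes, 578 moved by less than the spread between replicates and 45 by more. With 1 library left out, the number of the 7 that passed was 6 to 6 in SI, 6 to 7 in LI, 3 to 4 between tissues, 4 to 4 between monolayers and 3 to 5 in the interaction, with 5 without LI tissue replicate 1. DESeq2 gave 4 between tissues. Without a minimum fold change 5 passed between monolayers, as did 10145 of all 19581 tested genes. The uncalled differences between tissues of Msln (-0.25 to 0.73), Cd44 (-0.27 to 0.01) and Anxa10 (-0.51 to 0.29) changed sign when 1 library was left out, and the cause was not tested. List counts stayed within 1.5 times in 296 of 304 cases. Requiring 10 counts in every library left 5 of 9 (SI) and 6 of 12 (LI) called partners. It left 2 of 4 Ly6 genes in LI, and fewer genes were tested there. Without a minimum fold change, 11674 instead of 5110 of all 19581 tested genes passed in SI and 13445 instead of 7442 in LI. Under that setting 11 instead of 4 (SI) and 14 instead of 5 (LI) Hippo components passed. So did 15 instead of 9 partners (SI), 10 instead of 2 stem cell genes (SI) and 9 instead of 4 Ly6 genes (LI). With the replicate number as a block, 6, 6, 3, 4 and 3 of the 7 genes passed in the 5 comparisons, as without it. Deviations of same-numbered libraries correlated at -0.05 to 0.06. With 3 libraries per group, and numbers that need not match between groups, this cannot tell whether libraries share mice. Upper quartile scaling moved the median of all genes in LI from -0.05 to -0.17, which lowers all LI fold changes by that shift. Depth limits Fpr1 and Fpr2, with 0 to 4 counts in every library, and Muc16 and Has1 in SI, with 0 to 2 counts.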
